A study of Mus musculus with 38 samples.

Results

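The comparison described here is the recovery from fasting-induced torpor in the soleus muscle. It sets the Post group against the Mid group of experiment #1, the first of the study's 2 independent batches of mice. The libraries of a batch are called a run below, and the study names a NextSeq and a HiSeq as the sequencers of its experiments. The members of the comparison are the 12 libraries titled Mid 1 to 8 and Post 1 to 4, of 38 libraries in the whole series. They also take in all 10776 promoters with a tag in the first run (10819 promoters are in the table). All mice were young adult C57BL/6J males, and each library was made from the soleus of 1 mouse by nAnT-iCAGE, a form of cap analysis of gene expression without PCR that reads the capped 5′ ends of RNA. A tag therefore gives the base at which an RNA began, and a promoter is a cluster of such bases. The 8 Mid mice, labelled torpor, were sampled near the end of a day without food, on day 2, while they were torpid or between torpid bouts. The 4 Post mice, labelled recover, had gone through the same day of fasting, had been given food again at the start of day 3, and were sampled late on that day, at the same hour of the light cycle as the Mid mice. The return of food, the end of torpor and the passing of a further day cannot be told apart in this comparison. The 4 Pre mice, sampled on day 1 before food was removed, are given beside the results only as a reference for the fed level.

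During a fast, skeletal muscle turns from glucose to fatty acids. Pyruvate dehydrogenase is shut off by its kinases, amino acids are released through the ubiquitin-proteasome system and autophagy under the control of FOXO factors and glucocorticoids, and synthesis of fat and cholesterol is kept low. Insulin after refeeding acts in the opposite direction, through AKT, which keeps FOXO factors out of the nucleus, and through SREBP-1c and SREBP-2, the transcription factors of lipid synthesis.

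The 12 libraries had between 23726836 and 31834199 tags in promoters, and levels are given as CPM, tags scaled to a library of 1000000. The soleus is rich in slow fibers, and the promoters of *Myh7*, the slow myosin heavy chain, and *Tnni1*, the slow troponin I, had 968.6 to 1491 CPM and 284 to 406 CPM in every library. The promoter of *Myh4*, the myosin of the fast glycolytic fibers, ran from 5.72 to 969.8 CPM in the 12 libraries, while the 13 fast fiber markers summed to between 19328 and 28387 CPM in Mid and to between 20434 and 26089.7 CPM in Post. By the leading log2 fold change over 500 promoters, the Mid libraries lay 1.69 to 2.20 on average from each other and, with 1 exception, 2.19 to 2.63 from the Post libraries. The exception was Mid 6, which was as far from the other Mid libraries (1.80) as from the Post libraries (1.81). Among the promoters that were higher in Post, Mid 6 had the highest level of the 8 Mid libraries at 50.6%, and among those that were lower it had the lowest at 57.1%. The numbers of all promoters called are therefore also given without it below, but the counts in the gene lists are not. The numbers of the replicates name the mice, and the spread within a group is that between mice.

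The summed levels of the markers of red blood cells and of endothelial cells differed between the groups. The 7 measured markers of red blood cells summed to between 3009.9 and 4262 CPM in Mid and to between 2039 and 2644 CPM in Post, with no overlap, although none of the 7 passed the test. The α-globin gene *Hba-a1* was at 982 to 1449 CPM in Mid and 675 to 876 CPM in Post (log2 fold change -0.60, FDR 0.0939), and reads of *Hba-a1* and *Hba-a2* can be assigned to the wrong copy. *Hba-a2*, *Hbb-bs* and *Hbb-bt* behaved alike, at log2 fold changes of -0.62, -0.64 and -0.56. *Slc4a1*, the anion exchanger of red cells, was below 1 CPM throughout and *Bpgm* was at 13.4 to 21.9 CPM in Mid and 17.8 to 19.2 CPM in Post. In bulk tissue fewer cells of a type and less RNA per cell cannot be told apart. The 10 endothelial markers summed to between 382.1 and 482.3 CPM in Mid and to between 343.6 and 375.0 CPM in Post, again with no overlap, but they did not move together. *Kdr*, the VEGF receptor 2, rose by a log2 fold change of 0.85 and *Emcn* by 0.35, while *Flt1*, the VEGF receptor 1, fell by 0.91, *Pecam1* by 0.33 and *Esam* by 0.32. *Cdh5*, *Tek*, *Tie1*, *Vwf* and *Eng* did not pass. Of the 10, 20% thus rose and 30% fell, against 18.5% and 18% of all genes, counted by 1 promoter per gene. Macrophage markers overlapped between the groups in sum, and 1 of 10 (10%), the hemoglobin scavenger receptor *Cd163*, fell (10.98 ± 2.13 CPM in Mid and 5.50 ± 1.93 CPM in Post, mean ± SD). The 6 measured markers of Schwann cells and the 4 of neutrophils, the latter below 2 CPM in sum in every library, had no call. The Schwann cell markers summed to between 90.7 and 206 CPM (median 118) in Mid and to between 100 and 374 CPM (median 213) in Post. Their sum was highest in Mid 1 and Post 3, and it ran from 140 to 758 CPM in Pre. Of the 8 tendon markers 2 were higher in Post (25%, against 18.5% of all genes), *Scx* (log2 fold change 0.67) and *Tnc* (0.87). The sum of the 8 ran from 432.6 to 791.0 CPM in Mid and from 536.7 to 730.7 CPM in Post. The adipocyte markers, which bear on the genes of fat synthesis, are given with those.

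To show what such a promoter looks like, 7 are printed here, each 200 bases long and read 5′ to 3′ on the strand of the gene, from the RefSeq promoter sequences of GRCm38.p6, the same assembly as mm10. They are 3 promoters that were higher in Post and 4 that were lower, among the most changed promoters or members of the lists below with a RefSeq start within 50 bases of their highest CAGE peak. Each ends at the RefSeq start or at the highest CAGE peak, whichever lies upstream, and capitals mark matches to the motifs searched, which are spelled out further below.
*Angptl8* (chr9:21835296-21835495, plus strand): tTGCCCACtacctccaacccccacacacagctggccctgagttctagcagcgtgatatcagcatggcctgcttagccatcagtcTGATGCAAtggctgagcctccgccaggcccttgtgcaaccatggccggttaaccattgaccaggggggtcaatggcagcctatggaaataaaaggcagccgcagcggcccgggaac
*Hdac9* (chr12:34528889-34529088, minus strand): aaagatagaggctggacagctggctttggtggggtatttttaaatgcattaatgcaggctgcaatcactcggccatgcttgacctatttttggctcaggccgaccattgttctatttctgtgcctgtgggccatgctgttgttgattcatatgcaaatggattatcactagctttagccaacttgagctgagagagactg
*Msmo1* (chr8:64733580-64733779, minus strand): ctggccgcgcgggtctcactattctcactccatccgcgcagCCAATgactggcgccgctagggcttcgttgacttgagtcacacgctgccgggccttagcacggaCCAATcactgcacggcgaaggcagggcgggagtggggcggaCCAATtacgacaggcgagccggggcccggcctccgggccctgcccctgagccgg
*Ppargc1a* (chr5:51567727-51567926, minus strand): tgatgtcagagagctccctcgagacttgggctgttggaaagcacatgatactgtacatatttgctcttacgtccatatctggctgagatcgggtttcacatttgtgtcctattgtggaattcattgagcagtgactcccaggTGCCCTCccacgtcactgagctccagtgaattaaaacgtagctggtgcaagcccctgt
*Pdk4* (chr6:5496311-5496510, minus strand): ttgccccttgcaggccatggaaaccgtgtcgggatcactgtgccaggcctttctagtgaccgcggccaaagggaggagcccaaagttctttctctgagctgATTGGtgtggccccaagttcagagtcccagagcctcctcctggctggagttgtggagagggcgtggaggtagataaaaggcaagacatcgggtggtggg
*Cdkn1a* (chr17:29093570-29093769, plus strand): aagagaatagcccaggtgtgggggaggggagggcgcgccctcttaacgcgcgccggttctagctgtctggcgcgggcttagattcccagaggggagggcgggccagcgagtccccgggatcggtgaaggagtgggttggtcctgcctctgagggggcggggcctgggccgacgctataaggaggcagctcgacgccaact
*Trim63* (chr4:134314919-134315118, plus strand): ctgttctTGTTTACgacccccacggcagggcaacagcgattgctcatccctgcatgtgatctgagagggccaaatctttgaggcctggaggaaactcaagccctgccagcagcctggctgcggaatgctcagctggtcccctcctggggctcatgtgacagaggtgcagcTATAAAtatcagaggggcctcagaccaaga
In *Msmo1*, a gene of cholesterol synthesis, the capitals are 3 CCAAT boxes. In *Trim63*, a ubiquitin ligase of muscle atrophy, they are a site of FOXO factors on the other strand and a TATA box. In *Ppargc1a* they are a match to a short motif, the core of the metal response element. In *Angptl8* they are a match to the same core and one to the composite site of ATF4 and C/EBP, also a short motif. *Pdk4* had a CCAAT box on the other strand, and *Hdac9* and *Cdkn1a* had no motif to mark, although the letters TATAA, searched only near the peak, stand close to the end of the latter. Among all members with a sequence, a CCAAT box was found in 6 of 7 genes of cholesterol synthesis and uptake. It was in 7 of 7 genes of pyruvate dehydrogenase, its regulators and the pyruvate carriers, and in 39.7% of all promoters with a sequence. TATAA just before the peak was found in 6 of 14 glucocorticoid targets, in 10 of 20 immediate early and cyclic AMP genes and in 5.53% of all. Only some pairs of motif and list are given, and members were counted whether or not they changed. A CCAAT box was also in 6 of 6 cell division genes and 4 of 4 red blood cell markers. The sterol regulatory element was in 1 of the 7 cholesterol genes and the glucocorticoid response element in 0 of the 14 glucocorticoid targets. A FOXO site was in 1 of 8 FOXO factors and ligases of atrophy.

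Of the 10776 promoters, 1881 were up-regulated in Post (17.5%) and 1890 were down-regulated (17.5%), at an FDR below 0.05. The changes were small for most of them, with a median fold change of 1.32 for the up-regulated and 1.47 for the down-regulated promoters. A change of 2-fold or more was found in 147 promoters up-regulated and 315 down-regulated, and one of 4-fold or more in 29 and 72. The Post libraries lay above all Mid libraries at 974 promoters (9.04%) and below them at 860 (7.98%). Scaling by the upper quartile in place of TMM shifted the log2 fold changes of all promoters (median) from -0.014 to 0.055 and changed the split to 2535 up-regulated and 1471 down-regulated, so that the up-regulated made up 63.3% of the calls in place of 49.9%. On that scale 174 promoters were up-regulated and 275 down-regulated by 2-fold or more. Without Mid 6 the calls were 2085 and 2079, with 184 promoters up-regulated and 353 down-regulated by 2-fold or more.

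Gene lists are described below by 1 promoter per gene, the one with the highest mean level. On this basis 1672 of 9053 genes were higher in Post (18.5%) and 1632 were lower (18%), with a median log2 fold change of 0.

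Genes of lipid synthesis were up-regulated in Post. Of 22 genes of fatty acid synthesis, 12 rose and 3 fell (median log2 fold change 0.58), and of 15 genes of cholesterol synthesis and uptake, 10 rose and none fell (median 0.65). The promoter of *Fasn*, the fatty acid synthase, had 3.11 to 26.7 CPM (median 9.24) in Mid and 66.03, 44.6, 184 and 94.5 CPM in Post 1 to 4. The groups did not overlap, and the log2 fold change was 3.32 ± 0.43 (SE, FDR 1.88e-06). *Acly*, the ATP citrate lyase that provides cytosolic acetyl-CoA, had 8.15 to 13.1 CPM (median 11.2) in Mid and 48.4, 28.2, 71.3 and 40.5 CPM in Post, without overlap (log2 fold change 2.14 ± 0.20, FDR 1.87e-08). *Mid1ip1*, which promotes the polymerization of acetyl-CoA carboxylase, rose, with 29.04 to 68.9 CPM (median 33.8) in Mid and 152, 135, 137 and 117 CPM in Post. Its highest Mid library was Mid 6, and the groups were separate with a log2 fold change of 1.83 ± 0.17 (FDR 1.21e-08). *Pnpla3*, a lipase of lipid droplets that is a target of SREBP-1c, was at 1.75 to 6.70 CPM (median 2.40) in Mid and at 7.06, 9.41, 26.02 and 15.3 CPM in Post (log2 fold change 2.20, FDR 3.78e-05). The 3 genes that fell act in the assembly of triglycerides and phospholipids. They were *Lpin1* (30.5 ± 7.22 CPM in Mid, 16.8 ± 1.32 CPM in Post), *Dgat2* (203 ± 28.9 and 136 ± 18.8 CPM) and *Gpam* (141 ± 26.5 and 97.2 ± 10.1 CPM), given as mean ± SD over 8 and 4 libraries.

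Among the genes of cholesterol metabolism, *Msmo1*, a sterol C4 demethylase, rose, with 3.44 to 6.30 CPM (median 3.91) in Mid and 11.9, 8.55, 13.4 and 12.2 CPM in Post (log2 fold change 1.40 ± 0.15, FDR 1.16e-07), and the groups did not overlap. *Sc5d*, a late enzyme of the pathway, and *Srebf2*, which encodes SREBP-2, rose by log2 fold changes of 0.80 and 0.76. A further 6 rose by log2 fold changes between 0.52 and 1.06, and in the second run 8 of the 15 genes rose and none fell.

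Adipocytes are rich in these transcripts, so adipocyte markers were compared as well. The 10 measured markers (*Pparg* and *Adrb3* had no promoter in the table) summed to between 2225 and 4796 CPM in Mid and to between 1885 and 3533 CPM in Post. Between 67.2% and 93.8% of the sum came from *Car3*, a carbonic anhydrase that slow muscle fibers also express. The sum without *Car3*, added after seeing the data, was 184 to 1573 CPM in Mid and 275 to 1009 CPM in Post. *Adipoq*, which encodes adiponectin, was at 1.46 to 41.6 CPM in Mid and 5.85 to 23.6 CPM in Post (log2 fold change 0.30, FDR 0.77), *Fabp4* was at 74.5 to 390.2 CPM and 63.7 to 146 CPM, and *Cfd* at 72.7 to 1022 CPM and 169 to 745 CPM. These ranges overlapped, unlike those of *Fasn* and *Acly*. Only *Plin1*, the perilipin of large lipid droplets, passed the test among the 10 (log2 fold change 1.54, FDR 0.0463), and it did not in 10 of the 20 alternative analyses. Within the groups the sum, with or without *Car3*, was highest in Mid 1 and Post 3, which also had the highest levels of *Fasn*. The order of the other libraries was alike in part. Without *Car3* the sum was lowest in Mid 4, Mid 7 and Mid 8 (184, 187 and 289 CPM among the Mid libraries). These libraries also had the lowest *Fasn* (4.54, 3.11 and 4.31 CPM), and Post 4 came next to Post 3 in both. In other libraries the order differed. The sum was lowest in Post 1 but *Fasn* in Post 2, and Mid 5, second in the sum among the Mid libraries, had *Fasn* at 8.51 CPM. The sum of the Schwann cell markers was also highest in Mid 1 and Post 3. The part of fat tissue or nerve in the spread of these genes was not tested.

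Genes of fatty acid use were down-regulated. Of 33 genes of fatty acid uptake and oxidation, 17 fell and none rose (median log2 fold change -0.22). *Ppara*, the nuclear receptor that activates fatty acid oxidation, fell, with 55.5 to 93.8 CPM (median 68.6) in Mid and 20.5, 23.03, 21.03 and 24.9 CPM in Post. There was no overlap, and the log2 fold change was -1.66 ± 0.13 (FDR 1.96e-09). *Ucp3*, the uncoupling protein of muscle mitochondria, was at 33.95 to 113 CPM (median 80.2) in Mid and 12.9, 9.04, 11.7 and 9.89 CPM in Post (log2 fold change -2.86 ± 0.27, FDR 1.67e-08), also without overlap. *Plin5*, which ties lipid droplets to mitochondria, and *Acot2*, a mitochondrial thioesterase, fell by log2 fold changes of 2.14 and 1.47. The other members that fell had log2 fold changes between -1.72 and -0.19. Among other mitochondrial genes, 1 of 82 subunits of the respiratory chain rose (*Ndufv3*, log2 fold change 0.31) and 1 fell (*Sdhc*, -0.24), with a median of 0.06. The call of *Sdhc* was lost in 11 and that of *Ndufv3* in 2 of the 20 alternative analyses, and under upper-quartile scaling 12 subunits passed, all of them higher. In the second run none rose and 5 fell (median -0.11).

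Regulators of lipoprotein lipase, which releases fatty acids from plasma triglycerides, moved in both directions. *Angptl4*, an inhibitor of lipoprotein lipase induced by fasting, fell, with 23.3 to 92.1 CPM (median 39.8) in Mid and 3.35, 3.94, 11.1 and 5.27 CPM in Post (log2 fold change -2.93 ± 0.46, FDR 1.98e-05). *Angptl8*, its relative induced by feeding, was represented by 0 to 6 tags in each Mid library and by 20 to 182 tags in each Post library. This is 0 to 0.251 CPM (median 0.0686) in Mid and 0.807, 0.75, 3.58 and 5.57 CPM in Post, with a log2 fold change of 4.91 ± 0.58 that rests on very few tags in Mid. *G0s2*, an inhibitor of adipose triglyceride lipase, rose, with 17.3 to 65.9 CPM (median 32.9) in Mid and 182, 229.6, 291 and 282 CPM in Post (log2 fold change 2.76 ± 0.26, FDR 1.44e-08). *Gpihbp1*, which carries lipoprotein lipase to the capillary wall, fell by 1.16 and *Plin4* by 1.33 on the log2 scale. In all, 3 of 17 genes of lipolysis and lipoprotein lipase control rose (17.6%, near the 18.5% of all genes) and 7 fell (41.2%, against 18%).

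**Figure D1:**
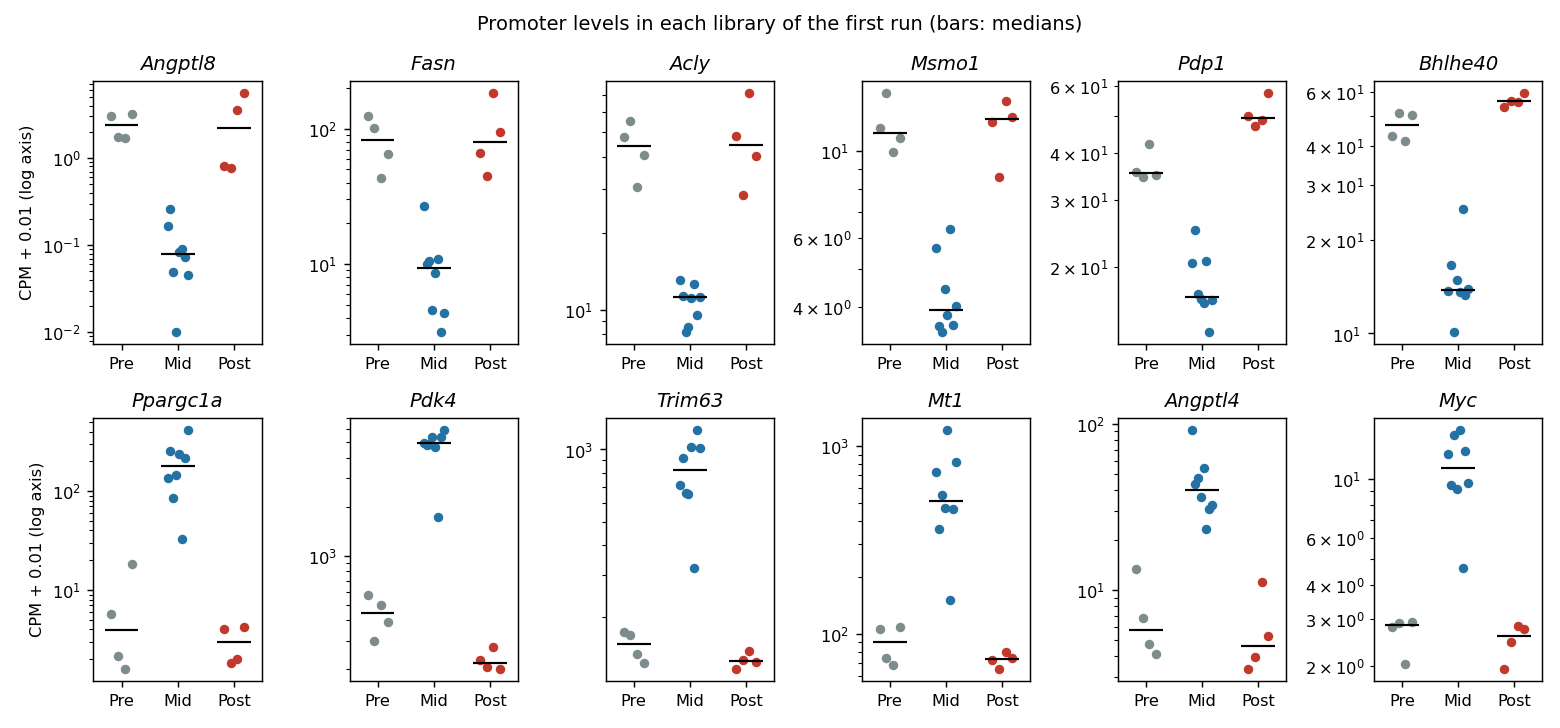
Level in each library of the first run (CPM + 0.01, log axis) of 6 promoters that were higher (top) and 6 that were lower in Post (bottom); grey, Pre; blue, Mid; red, Post; bars are medians. In all 12 panels the Post libraries lie outside the range of the Mid libraries, and the Mid library nearest to Post is Mid 6 in all 6 lower panels and at *Msmo1* and *Bhlhe40*.

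Pyruvate dehydrogenase is the step from glycolysis to the citric acid cycle. Of 13 genes of the enzyme, its regulators and the pyruvate carriers, 1 rose and 2 fell (7.69% and 15.4%), below the 18.5% and 18% of all genes. *Pdk4*, the kinase that inhibits the enzyme in fasting, had 1717 to 5944 CPM (median 4903) in Mid and 228, 206, 273 and 201 CPM in Post, a log2 fold change of -4.37 ± 0.31 (FDR 6.30e-10). Its level in Post was below its mean of 438 CPM in Pre. *Pdp1*, the phosphatase that activates the enzyme in muscle, rose, with 13.5 to 25.02 CPM (median 16.7) in Mid and 50.1, 47.1, 48.8 and 57.5 CPM in Post (log2 fold change 1.48 ± 0.13, FDR 1.06e-08), and its mean in Pre was 36.9 CPM. The second phosphatase, *Pdp2*, fell, with 12.4 to 25.9 CPM (median 24.1) in Mid and 5.57, 6.98, 6.03 and 6.52 CPM in Post (log2 fold change -1.85, FDR 2.90e-08). The 2 phosphatases thus moved in opposite directions, each with no overlap between Mid and Post, and both changes were also found in the second run (log2 fold changes 1.69 and -1.66).

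Of 34 genes of glucose uptake, glycolysis and glycogen, 4 rose and 4 fell (median log2 fold change -0.03), which is below the 18.5% and 18% of all genes. *Gbe1*, the glycogen branching enzyme, rose from 162 ± 16.998 to 242 ± 29.1 CPM (log2 fold change 0.58, FDR 1.60e-05), and *Ppp1r3a*, which brings protein phosphatase 1 to glycogen, by 0.40. *Eno1* and *Pfkfb3* rose by 0.63 and 0.75. *Slc2a1*, the glucose transporter GLUT1, fell from 33.6 ± 10.4 to 14.4 ± 3.16 CPM (log2 fold change -1.23, FDR 3.39e-05), and *Ugp2*, which makes UDP-glucose, *Phkg1* and *Hk2* fell by 0.53, 0.65 and 0.28. The call of *Hk2* was lost in 13 of the 20 alternative analyses.

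Of 24 genes of insulin and IGF signalling, 4 rose and 5 fell (16.7% and 20.8%), which is near the 18.5% and 18% of all genes. *Irs2*, an insulin receptor substrate that is repressed by insulin, fell, with 38.8 to 82.4 CPM (median 60.4) in Mid and 19.9, 18.8, 12.99 and 26.6 CPM in Post (log2 fold change -1.64 ± 0.25, FDR 1.21e-05). *Insr*, the insulin receptor, fell by 0.40 and *Pik3ca*, a catalytic subunit of PI3-kinase, by 0.79. *Igf1*, the growth factor itself, was at 3.30 to 12.004 CPM (median 4.66) in Mid and 14.2, 10.1, 21.03 and 16.6 CPM in Post, with overlap between the groups (log2 fold change 1.36 ± 0.30, FDR 9.76e-04). *Igfbp5*, a binding protein of IGFs, rose by 1.16 and *Grb10*, an adaptor that dampens the receptor, by 0.58.

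Among 26 genes of the mTOR complex and its regulators, 3 rose and 8 fell (11.5% and 30.8%, against 18.5% and 18% of all genes). *Ddit4*, an inhibitor of mTORC1 also called REDD1, fell, with 6.70 to 43.9 CPM (median 22.7) in Mid and 2.70, 4.73, 2.05 and 3.22 CPM in Post (log2 fold change -2.91 ± 0.44, FDR 1.51e-05). *Sesn1*, a sestrin, fell, with 27.3 to 105 CPM (median 73.9) in Mid and 14.4, 14.1, 13.95 and 12.98 CPM in Post (log2 fold change -2.33, FDR 9.41e-08), and *Fnip1*, a partner of folliculin, by 1.18. *Ddit4l*, the paralog of *Ddit4*, went the other way, with 14.9 to 65.4 CPM (median 25.7) in Mid and 128, 111, 124 and 126 CPM in Post (log2 fold change 2.02 ± 0.27, FDR 2.75e-06). Both paralogs had separate groups, and their means in Pre were 3.79 CPM for *Ddit4* and 138 CPM for *Ddit4l*.

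Among the genes of muscle protein breakdown, the FOXO factors and ubiquitin ligases of atrophy were mostly lower in Post, while proteasome subunits rose more often than they fell. Of 17 FOXO factors and ubiquitin ligases of atrophy, 12 fell and 3 rose (70.6% and 17.6%, against 18% and 18.5% of all genes). The median log2 fold change was -0.57. *Trim63*, which encodes the ligase MuRF1, fell, with 321 to 1209 CPM (median 818) in Mid and 121, 132, 145 and 129.7 CPM in Post, and *Fbxo32*, which encodes atrogin-1, was at 161 to 413 CPM (median 293) in Mid and 112, 101, 100.3 and 110.2 CPM in Post. Neither pair of groups overlapped, with log2 fold changes of -2.63 ± 0.26 (FDR 3.68e-08) and -1.49 ± 0.17 (FDR 3.77e-07). *Fbxo30*, a ligase also known as MUSA1, and *Klf15*, a transcription factor of fasting, fell by 1.27 and 2.05. The 3 that rose were *Fbxw7* (log2 fold change 0.95), *Trim55*, which encodes MuRF2 (0.65), and *Asb2* (0.48). Of 37 genes of autophagy and mitophagy, 15 fell and 2 rose. *Gabarapl1*, a ubiquitin-like protein of the autophagosome, fell, with 126 to 413 CPM (median 324) in Mid and 44.4, 57.9, 48.7 and 48.6 CPM in Post (log2 fold change -2.64 ± 0.22, FDR 2.47e-09), and the kinase *Ulk1*, which starts autophagy, by 2.03. *Atg13*, a partner of ULK1, and *Zfand5* fell by 1.02 and 1.11, while *Atg5* rose by 0.42. Mid 6 was the lowest Mid library at *Trim63*, *Fbxo30*, *Gabarapl1* and *Ulk1*. Of 44 proteasome subunits and assembly factors 15 rose and 1 fell (4 and 0 in the second run), and the largest increases were those of the immunoproteasome subunits *Psmb8* (0.83) and *Psmb10* (0.73).

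The list with the highest share of calls was that of glucocorticoid targets, of which 25 of 28 fell and none rose (median log2 fold change -1.65). The list shares *Pdk4*, *Trim63*, *Fbxo32*, *Klf15*, *Ddit4*, *Sesn1*, *Irs2*, *Per1*, *Cdkn1a*, *Mt1*, *Mt2*, *Cebpb*, *Gadd45g*, *Dusp1*, *Pik3r1* and *Lpin1* with other lists described here. *Cdkn1a*, an inhibitor of the cell cycle, fell, with 103 to 289.6 CPM (median 247) in Mid and 21.5, 26.4, 23.7 and 25.999 CPM in Post (log2 fold change -3.26 ± 0.28, FDR 4.93e-09), below its mean of 53.9 CPM in Pre. *Klf9*, a direct target of the glucocorticoid receptor in many tissues, fell from 175 ± 34.4 to 72.6 ± 7.36 CPM (FDR 6.45e-08). In the second run 23 of the 28 fell and none rose.

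Among the regulators of mitochondrial genes, *Ppargc1a*, which encodes the coactivator PGC-1α, had 32.6 to 417 CPM (median 181) in Mid and 3.99, 1.80, 2.01 and 4.20 CPM in Post at the promoter with most tags. The log2 fold change of -5.97 ± 0.72 was the largest decrease among the named promoters (FDR 5.96e-07). *Ppargc1b*, its paralog, rose, with 4.79 to 13.7 CPM (median 7.46) in Mid and 18.6, 17.3, 13.8 and 13.9 CPM in Post (log2 fold change 0.97, FDR 0.00191). Of 19 regulators 3 rose and 8 fell (15.8% and 42.1%, against 18.5% and 18% of all genes). Those that fell included *Sirt1* (log2 fold change -0.91) and *Gabpa* (-0.56), whereas in the second run 4 regulators rose and 3 fell. Of 75 mitochondrial ribosomal proteins 14 rose, among them *Mrpl22* (0.62), and 2 fell. This share of 18.7% is close to the 18.5% of all genes, and in the second run none of them rose and 1 fell (median log2 fold change -0.03).

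Genes of metal and heme handling held 4 of the 10 promoters with the largest decreases, those of *Slc39a14*, *Mt2*, *Hmox1* and *Slc30a2*. The metallothionein *Mt2*, which binds zinc, was at 40.2 to 1131 CPM (median 299) in Mid and at 19.7, 13.5, 17.7 and 19.4 CPM in Post, and *Mt1* was at 151 to 1226 CPM (median 509.9) in Mid and 72.5, 65.03, 80.2 and 74.5 CPM in Post. *Hmox1*, the heme oxygenase, had 10.6 to 601 CPM (median 71.99) in Mid and 5.81, 4.76, 6.96 and 5.51 CPM in Post. The Mid libraries were high to different degrees and highest in Mid 5 in all 3 genes, while the Post libraries lay close together. The means in Pre were 19.98, 89.4 and 5.75 CPM, in the same order. *Slc30a2*, a transporter that moves zinc into vesicles, fell, with 1.90 to 21.2 CPM (median 6.51) in Mid and 0.565, 0.263, 0.402 and 0.674 CPM in Post (log2 fold change -4.04 ± 0.52, FDR 1.45e-06). *Tfrc*, the transferrin receptor, rose, with 8.44 to 24.05 CPM (median 12.1) in Mid and 52.998, 40.7, 47.98 and 50.9 CPM in Post (log2 fold change 1.81 ± 0.18, FDR 3.23e-08), and its mean in Pre was 67.7 CPM. In all 8 of 22 genes fell and 2 rose.

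Of 29 genes of NRF2 and redox control 7 fell and 5 rose (24.1% and 17.2%, against 18% and 18.5% of all genes). *Gclc* and *Gclm*, the subunits of the first enzyme of glutathione synthesis, fell by log2 fold changes of 1.43 and 1.05, the sulfiredoxin *Srxn1* by 1.34 and the thioredoxin reductase *Txnrd1* by 0.60. Those that rose were led in size by *Tkt*, the transketolase of the pentose phosphate pathway (14.9 to 64.5 CPM (median 23.4) in Mid and 56.3, 36.5, 110.1 and 62.9 CPM in Post, log2 fold change 1.32, FDR 0.00776). Mid 1, the library with the most adipocyte tags, was far above the other Mid libraries at *Tkt*, and the call was lost without Post 3 and with the replicate number as a block.

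In the lists of amino acid stress and of immediate early genes, more genes were lower than higher in Post. Of 21 genes of ATF4 and amino acid stress, 11 fell and 4 rose (52.4% and 19%, against 18% and 18.5% of all genes). *Atf4* fell from 93.9 ± 18.6 to 49.1 ± 2.99 CPM, *Cebpb* by 0.90 on the log2 scale, and *Ppp1r15a*, which encodes the phosphatase subunit GADD34, by 1.53. *Chac1*, which degrades glutathione, was at 7.57 to 69.96 CPM (median 38.6) in Mid and 9.03, 3.98, 5.51 and 6.34 CPM in Post. Its groups overlapped only through Mid 6, and the log2 fold change was -2.70 ± 0.40 (FDR 1.14e-05). *Ddit3*, which encodes the factor CHOP and is usually induced together with these genes, rose, with 27.8 to 44.1 CPM (median 37.4) in Mid and 109, 93.4, 97.5 and 69.3 CPM in Post (log2 fold change 1.32 ± 0.12, FDR 1.45e-08), above its mean of 58.8 CPM in Pre. Of 28 immediate early and cyclic AMP genes, 13 fell and 3 rose, with *Atf3* at 17.03 ± 5.70 and 5.79 ± 0.886 CPM and *Btg2* at 39.2 ± 11.99 and 14.7 ± 1.93 CPM in Mid and Post. *Pde4d*, a phosphodiesterase that degrades cyclic AMP, had 18.2 to 113 CPM (median 67.1) in Mid and 2.30, 7.69, 3.94 and 2.42 CPM in Post at its most changed promoter (log2 fold change -4.00 ± 0.46, FDR 3.47e-07).

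Heat shock proteins did not move as a group, with 12 of 42 higher (28.6%) and 7 lower in Post (16.7%). *Hspb3*, a small heat shock protein of muscle, rose, with 15.2 to 38.2 CPM (median 23.3) in Mid and 61.6, 67.1, 55.5 and 60.97 CPM in Post (log2 fold change 1.35 ± 0.14, FDR 5.01e-08), and *Chordc1* by 0.57. The inducible *Hspa1a* fell by 0.94, *Hspb1* by 0.76 and *Dnajb9*, a chaperone of the endoplasmic reticulum, by 1.03. Of 20 cold-inducible RNA-binding proteins and splicing factors 3 rose and 4 fell (15% and 20%, against 18.5% and 18% of all genes). *Srpk3*, a splicing kinase of muscle, rose from 31.6 ± 6.47 to 59.7 ± 4.52 CPM (log2 fold change 0.92, FDR 4.24e-06), and *Srsf5* and *Clk1* fell by 0.72 and 0.66. Of 12 subunits of the cytosolic chaperonin and of prefoldin 3 rose (25%) and 1 fell (8.33%), all by less than 0.3 on the log2 scale.

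Of 50 genes of ribosome biogenesis 20 fell and 2 rose (median log2 fold change -0.16). *Myc*, the transcription factor of growth, fell, with 4.64 to 15.2 CPM (median 10.96) in Mid and 1.94, 2.44, 2.82 and 2.73 CPM in Post (log2 fold change -2.14 ± 0.25, FDR 4.55e-07). *Ubtf*, a factor of RNA polymerase I, fell by 0.83, *Rrs1* by 0.91 and *Gnl3*, the nucleostemin, by 0.87, and *Bop1* rose by 0.48. Of 79 cytosolic ribosomal proteins 42 rose and none fell, but by little (median 0.18), among them *Rpl5* (47.8 ± 4.74 CPM in Mid and 66.4 ± 2.77 CPM in Post, FDR 2.63e-05). A change of this size depends on the scaling and on the run. The count was 63 with upper-quartile scaling and 2 without TMM, and in the second run 1 ribosomal protein rose and 2 fell (median -0.02). Biogenesis genes fell in 14 with upper-quartile scaling, in 7 without TMM and in 9 in the second run. Of 45 factors of translation 5 rose and 6 fell (11.1% and 13.3%), below the 18.5% and 18% of all genes. *Eif4e*, the cap-binding protein, was at 0.51 and *Eif3a* and *Eif4a2* were at -0.58 and -0.59 on the log2 scale. Among 22 cytosolic aminoacyl-tRNA synthetases and their partners 3 rose and 4 fell (13.6% and 18.2%), with the largest change in *Eef1e1* (0.72).

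**Figure D2:**
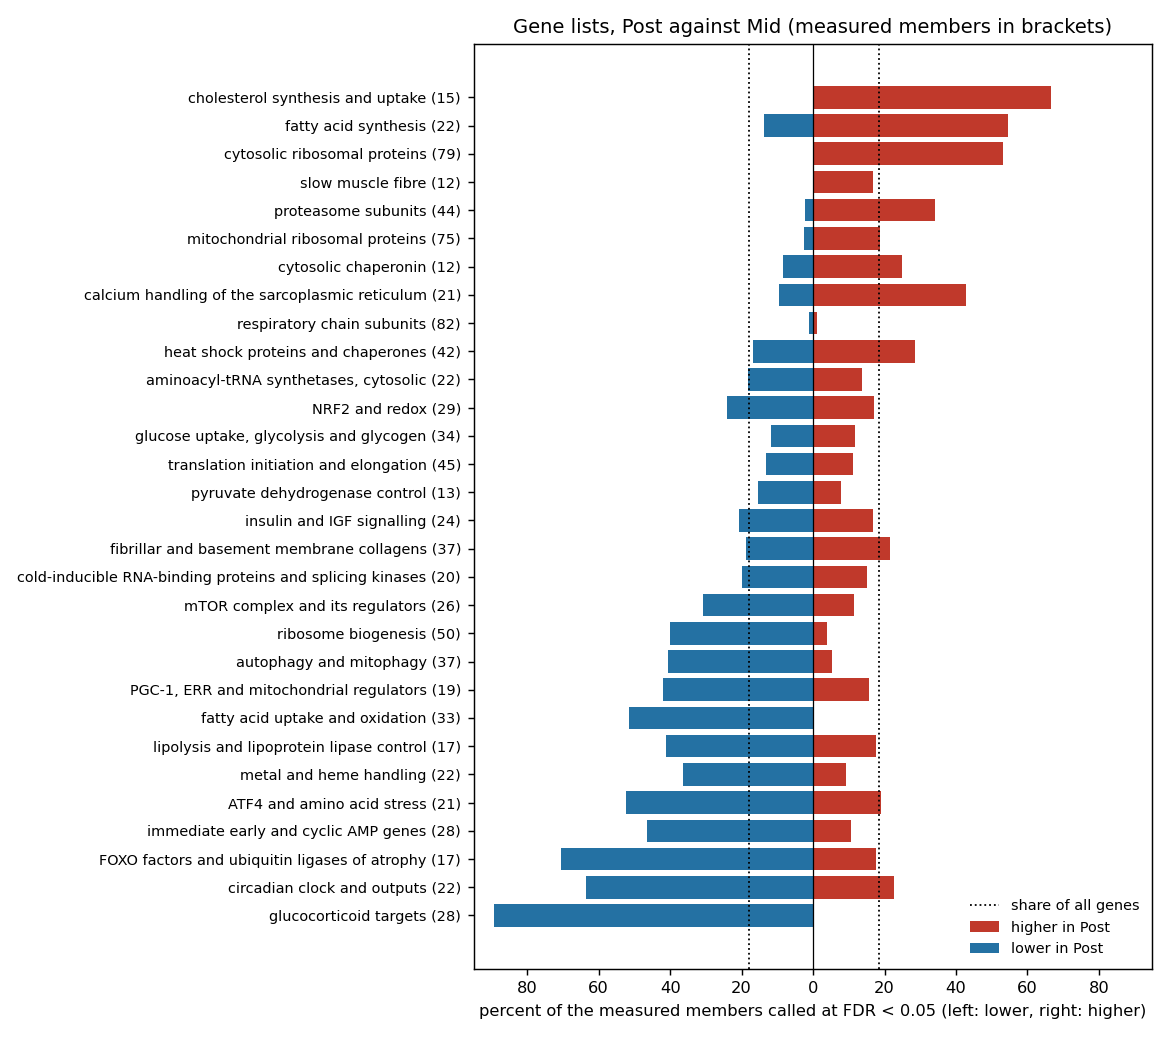
Percent of the measured members of each gene list that were lower (left, blue) or higher (right, red) in Post at an FDR below 0.05, with the lists ordered by their median log2 fold change; dotted lines mark the percentages of all genes, 18% and 18.5%. Glucocorticoid targets have the highest share of lower genes and cholesterol synthesis and uptake the highest share of higher genes.

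Although Mid and Post were sampled at the same hour, 19 of 22 genes of the circadian clock and its outputs changed, 5 higher and 14 lower in Post (median log2 fold change -0.64). *Arntl*, which encodes the activator BMAL1, fell, with 45.9 to 56.1 CPM (median 50.7) in Mid and 23.1, 23.3, 27.8 and 22.7 CPM in Post, and *Nfil3*, the repressor of D-box genes, was at 37.1 to 52.9 CPM (median 38.8) in Mid and 11.7, 12.8, 12.3 and 11.3 CPM in Post. Both had separate groups, with log2 fold changes of -1.09 ± 0.09 and -1.77 ± 0.14 (FDRs 1.48e-09 and 1.57e-09). *Dbp*, the activator of D-box genes, *Per3* and the repressors *Bhlhe40* and *Bhlhe41* went up. *Bhlhe40* was at 10.1 to 25.2 CPM (median 13.8) in Mid and 53.4, 55.96, 55.5 and 59.3 CPM in Post (log2 fold change 1.89 ± 0.15, FDR 1.31e-09), and *Dbp*, *Per3* and *Bhlhe41* rose by 0.76, 1.04 and 1.21. *Per1*, which is also a glucocorticoid target, fell by 1.80. For *Dbp* the mean level in Post, 16.6 CPM, was above those in Mid (9.83 CPM) and in Pre (8.39 CPM), and for *Nfil3* the mean in Post, 12.04 CPM, was below those in Mid (41.2 CPM) and in Pre (27.3 CPM). In the second run 6 genes rose and 10 fell.

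Among the structural genes of muscle, 9 of 21 of calcium handling were higher and 2 lower in Post. *Stac3*, a partner of the calcium channel of the T-tubules, rose, with 52.4 to 80.4 CPM (median 58.7) in Mid and 114, 118, 114 and 118 CPM in Post (log2 fold change 0.92 ± 0.09, FDR 3.68e-08). *Jph2* and *Casq2*, a junctophilin and a calsequestrin, rose by 0.80 and 0.68, and *Jph1*, the other junctophilin of muscle, fell by 0.75. Of 12 slow fiber genes 2 rose (16.7%), *Casq2* and *Myl2* (0.45). Of 13 fast fiber genes 1 rose, *Tnnc2* (0.26), and 1 fell, *Mybpc2* (-1.46), which is 7.69% each. These shares were below the 18.5% and 18% of all genes. The calls of *Tnnc2* and *Mybpc2* were each lost in 8 or more alternative analyses. In the extracellular matrix 8 of 37 genes rose and 7 fell (21.6% and 18.9%, against 18.5% and 18% of all genes). In the second run 1 of them rose and 7 fell (median log2 fold change -0.29). Those that fell included the basement membrane chains *Col4a1* (346 ± 45.03 and 216 ± 15.1 CPM in Mid and Post) and *Col4a2* (log2 fold change -0.60) and the crosslinking enzyme *Lox* (-1.32), and those that rose included *Col15a1* (0.97) and *Serpinh1*, a chaperone of collagen (0.72). Of 34 listed genes of cell division 8 had a promoter in the table, and *Cenpa* and *Rrm2* fell (25%, against 18% of all genes).

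Some of the largest changes lay outside these lists. *Mchr1*, a receptor of melanin-concentrating hormone, rose, with 0.629 to 2.42 CPM (median 1.06) in Mid and 19.1, 6.71, 16.7 and 9.03 CPM in Post (log2 fold change 3.37 ± 0.33, FDR 3.15e-08). *Tnk2*, a tyrosine kinase, was at 0.889 to 5.82 CPM (median 2.15) and 18.997, 16.3, 20.1 and 17.1 CPM, and its Post libraries lay close together (log2 fold change 3.01 ± 0.32, FDR 1.21e-07). *Hdac9*, a class IIa histone deacetylase that binds MEF2, rose, with 1.58 to 5.63 CPM (median 2.58) in Mid and 14.04, 16.2, 14.4 and 14.1 CPM in Post (log2 fold change 2.45 ± 0.24, FDR 2.61e-08). The promoters of these 3 genes lie at chr15:81235346-81235816, chr16:32661119-32661331 and chr12:34528739-34529111 in mm10. *Ptges*, a prostaglandin E synthase, *Sec14l5*, a protein with a lipid-binding domain, and *Plcd4*, a phospholipase C, rose by 2.72, 2.71 and 2.34. On the other side, *Asb15*, a muscle subunit of ubiquitin ligases, fell, with 13.9 to 69.97 CPM (median 37.2) in Mid and 3.43, 3.04, 2.61 and 2.05 CPM in Post (log2 fold change -3.91 ± 0.38, FDR 2.17e-08).

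For 454 genes more than 1 promoter reached a mean of 1 CPM, and the ratio of the 2 with most tags was compared within each library. Since CAGE counts 5′ ends, this ratio does not depend on the length of the RNA or on the scaling of the library. It changed between Mid and Post in 174 genes (38.3%) at an FDR below 0.05, and in 134 to 197 genes when 1 of the 12 libraries was left out. The call held in each of these 12 analyses for 125 genes. This test was chosen after seeing the data. Named here are 10 of the 11 genes with the smallest p, and *Acaca* and *Srebf1*, which were chosen for their part in lipid synthesis after their values were seen.

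The log2 ratio changed most, among the 12 genes named, in *Ppargc1a*. Its upstream promoter, with the peak at 51567727 on chromosome 5, gave 84.0% of the tags of the pair in Mid and 7.71% in Post, while the promoter 13.9 kb downstream had 27.1 to 55.2 CPM (median 34.5) in Mid and 30.7 to 40.7 CPM in Post (log2 fold change -0.02, FDR 0.937). The log2 ratio changed by 5.77 ± 0.61 (limma, FDR 1.81e-05). Similarly, the downstream promoter of *Slc39a14*, a transporter of zinc and iron, fell, with 2.14 to 11.6 CPM (median 8.23) in Mid and 0.0612 to 0.322 CPM in Post (log2 fold change -5.39), while the one 19.9 kb upstream fell less, with 11.4 to 18.7 CPM (median 15.4) in Mid and 7.88 to 9.72 CPM in Post (-0.76). In *Lrch1* the downstream promoter took 60.4% of the pair in Mid and 10.6% in Post (log2 fold change -4.21, and -0.53 for the promoter upstream), and in *Pde4d* 62.8% and 15.3%. In *Sar1a*, a GTPase of vesicle transport, and *Sgms1*, a sphingomyelin synthase, the downstream promoter fell (-1.34 and -1.34) and the upstream one did not pass (0.10 and 0.10).

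In other genes the downstream promoter rose. *Clcn3*, a chloride-proton exchanger of endosomes, had 2.58 to 5.31 CPM (median 3.24) at the downstream promoter in Mid and 12.5 to 13.8 CPM in Post, a log2 fold change of 1.95 (FDR 8.93e-10), against 0.35 at the promoter 28.5 kb upstream. *Smtn*, which encodes the actin-binding smoothelins, had 13.8 to 37.9 CPM (median 19.3) in Mid and 70.7 to 91.1 CPM in Post at the downstream promoter (log2 fold change 1.90). Its upstream promoter had 15.4 to 20.4 CPM (median 18.05) in Mid and 15.2 to 20.1 CPM in Post (FDR 0.874).

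*Srebf1*, which encodes SREBP-1, followed the same pattern. Its promoter with the peak at 60220606 on chromosome 11 had 9.33 to 11.7 CPM (median 10.502) in Mid and 10.04 to 11.5 CPM in Post (log2 fold change 0.05, FDR 0.757). The promoter 10.2 kb downstream, at 60210422, rose, with 3.17 to 7.37 CPM (median 4.25) in Mid and 8.51 to 16.1 CPM in Post (log2 fold change 1.47, FDR 3.00e-06), so that its share of the pair went from 29.7% to 53.1%. In *Acaca*, the acetyl-CoA carboxylase, the upstream promoter rose, with 0.19 to 3.33 CPM (median 0.629) in Mid and 6.94 to 32.9 CPM in Post (log2 fold change 4.19). The promoter 6.53 kb downstream, which had most of the tags, was at 11.9 to 19.9 CPM (median 15.04) in Mid and 19.7 to 27.9 CPM in Post (0.61). Both promoters of *Acaca* were highest in Mid 1 and Post 3, the libraries with the highest sums of adipocyte markers in their groups. The same libraries had the highest sums of Schwann cell markers. The part of fat tissue or nerve in these levels was not tested.

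In 2 of the named genes both promoters passed the test in opposite directions. In *Casz1*, a zinc finger transcription factor, the upstream promoter rose, with 5.30 to 8.36 CPM (median 5.86) in Mid and 10.6 to 12.2 CPM in Post (log2 fold change 0.84) and the promoter 96.7 kb downstream fell, with 6.50 to 14.4 CPM (median 11.3) in Mid and 1.99 to 2.63 CPM in Post (-2.28). In *Esrrb*, the estrogen-related receptor β, the log2 fold changes were 0.55 upstream and -1.0 downstream.

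**Figure D3:**
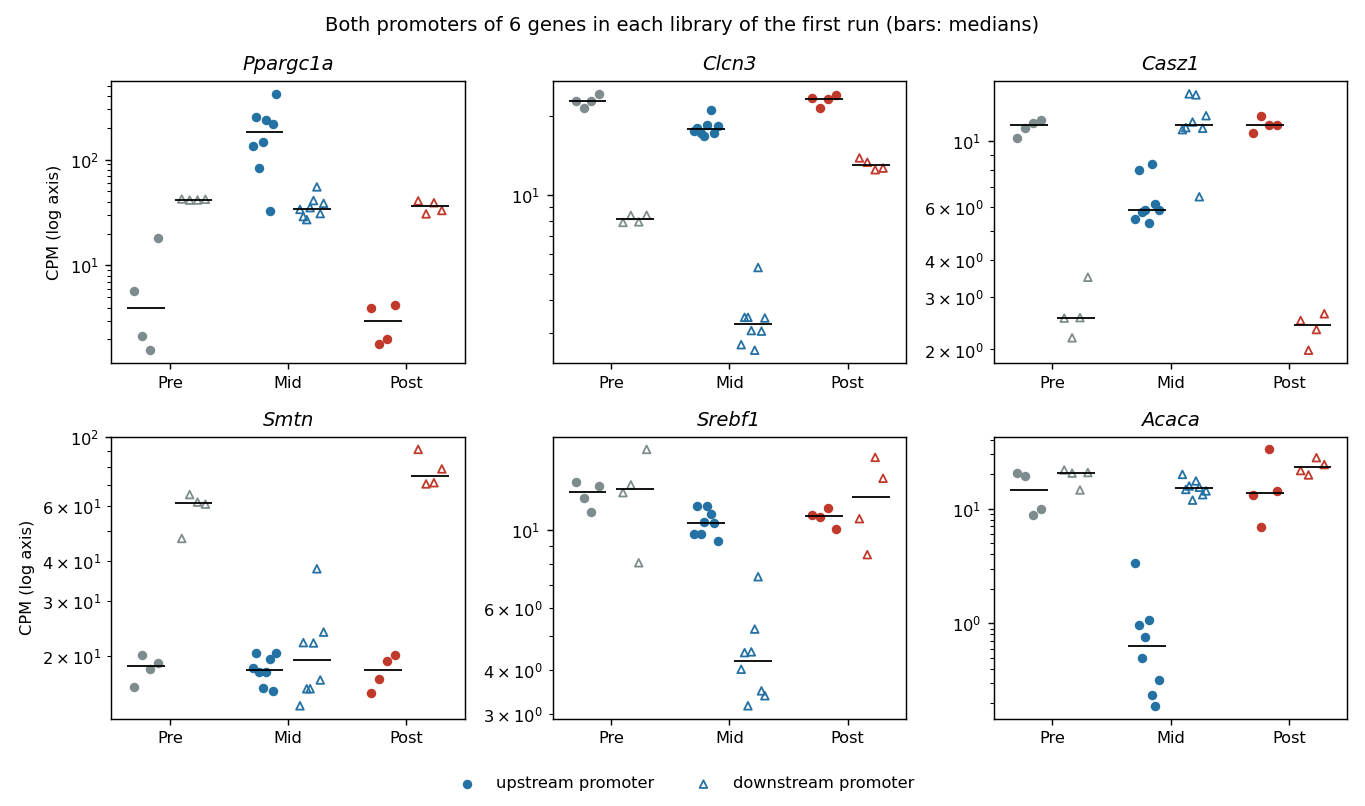
Level (CPM, log axis) of the upstream (filled circles) and downstream promoter (open triangles) of 6 genes in each library of the first run, with medians as bars; grey, Pre; blue, Mid; red, Post. In *Ppargc1a* and *Acaca* the upstream promoter changes most, in *Clcn3*, *Smtn* and *Srebf1* the downstream one, and in *Casz1* they change in opposite directions.

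Experiment #2, the second run of 5 Mid and 3 Post libraries from other mice, was fitted on its own. All 3 Post libraries and 1 of the Mid libraries were sequenced on lane 4 and the other 4 Mid libraries on lane 3, so that group and lane can hardly be told apart in this run. Without the lane as a term it gave 836 promoters up-regulated (7.73%) and 936 down-regulated (8.65%) of 10816, at a depth of 9359994 to 20914855 tags, below that of the first run. Of the 147 promoters that were higher by 2-fold or more in the first run, 144 had the same sign in the second and 126 passed its test in the same direction. Of the 315 that were lower, 313 had tags in the second run, 308 had the same sign and 280 passed. None passed in the opposite direction. The median log2 fold changes of the higher promoters were 1.42 and 1.43 in the 2 runs, and those of the lower promoters -1.43 and -1.23. All 20 promoters named for the size of their change passed in the second run in the same direction. A test of the difference of the Post against Mid change between the runs called 0 of 10819 promoters (0%) by edgeR's quasi-likelihood test, with 563 at an unadjusted p below 0.05 (5.2%). With the lane added to the fit, an analysis chosen after seeing the data, 148 promoters were higher and 337 lower, and 144 and 317 of these were also called without it. Of the promoters changed by 2-fold or more in the first run, 62 of the higher and 198 of the lower then passed in the same direction and none in the opposite one, and so did 6 of the 10 named higher and all 10 named lower promoters.

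**Figure D4:**
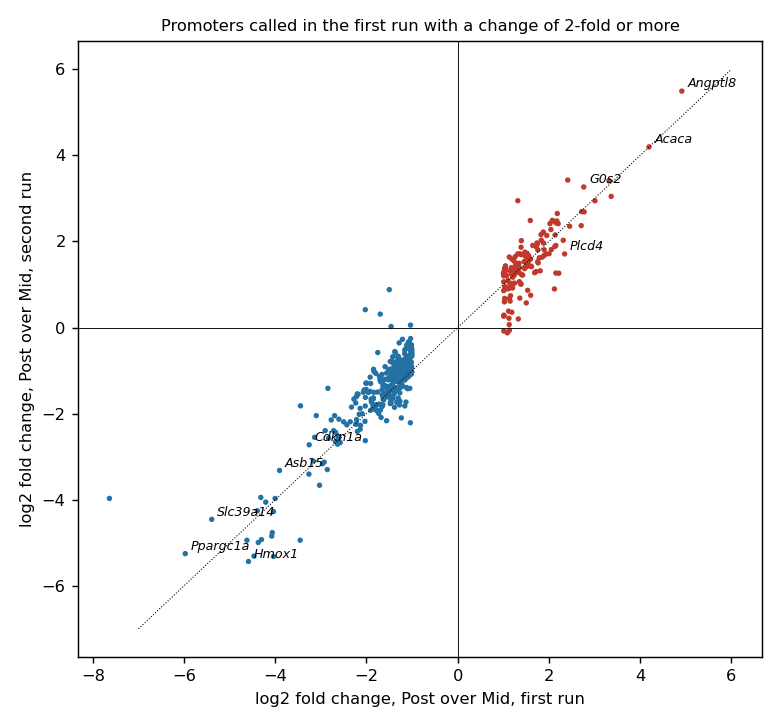
Log2 fold change, Post over Mid, in the first run (x axis) and in the second run (y axis) of the promoters called in the first run with a change of 2-fold or more and with tags in the second; red, higher in Post; blue, lower; the dotted line marks equal change. Of the red points 144 and of the blue points 308 have the same sign in both runs.

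Sequence features were described for the 4737 promoters with a RefSeq start within 50 bases of the highest CAGE peak, over 250 bases before to 50 after that start and on both strands. The E-box CACGTG was found in 10.8% of all these promoters, in 9.76% of those higher and in 13.5% of those lower in Post, and in 18.2% of the 121 that were lower by 2-fold or more. A site of FOXO factors, GTAAACA, was found in 2.53% of all, 4.64% of the lower promoters and 6.61% of those lower by 2-fold or more. The letters TATAA starting 40 to 20 bases before the peak, on the strand of the gene, occurred in 5.53% of all and in 14.9% of those lower by 2-fold or more, but in 3.64% of the 55 that were higher by 2-fold or more. The cyclic AMP response element TGACGTCA was in 3.91% of all and in 5.3% of the lower promoters, the antioxidant response element core TGACNNNGC in 15.3% and 17.2%, and the composite site of ATF4 and C/EBP, TGATGNAA, in 1.92% and 2.21%. Of the commoner motifs, the metal response element core TGCNCNC was in 60.9% of all promoters and in 60.7% of the lower ones, and the CCAAT box in 39.7% and 40.4%. The sterol regulatory element TCACNCCAC was in 61 promoters in all (1.29%), 6 of them among the 871 that were higher, and the D-box TTATGTAA in 25 (0.528%). TATAAA on either strand was in 8.34% of all, in 8.15% of the higher and in 7.07% of the lower promoters. Unlike TATAA near the peak, it was in 12.7% of those higher by 2-fold or more and in 8.26% of those lower by 2-fold or more. The glucocorticoid response element in the form searched was in 2 promoters. Many of these motifs overlap in their letters, and a match describes the sequence only. Promoters lower in Post were wider than the others, with a median of 335 bp against 281 bp for all promoters and 261 bp for those higher, although those higher by 2-fold or more had a median of 287 bp. The lower promoters also had more tags, with a median of 21.5 CPM against 17.3 CPM for all and 16.3 CPM for the higher ones.

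Of the 1185 tested clusters farther than 500 bp from an annotated 5′ end, 104 were higher (8.78%) and 144 were lower in Post (12.2%), both below the percentages of all promoters. The 3 with the largest change in each direction are given here. Among the decreases, 2 lay in exons of *Pdk4* on its strand, at chr6:5490933-5491171 and chr6:5491813-5492144, and fell with the gene. One had 2.83 ± 1.04 CPM in Mid and 0.13 ± 0.185 CPM in Post (mean ± SD), and the other 5.39 ± 1.57 and 0.258 ± 0.157 CPM. The last, at chr5:105292125-105292283 in an intron of *Gbp6* and of *Gm43302* on their strand, fell from 11.1 ± 4.44 to 0.551 ± 0.0575 CPM. The largest increases were those of clusters in introns of *Nt5c3* at chr6:56888575-56888775 (0.991 ± 0.667 CPM in Mid and 6.76 ± 1.18 CPM in Post), of *Mtus1* (1.24 ± 0.794 and 4.20 ± 1.23 CPM) and of *Rbfox2*, a splicing factor, at chr15:77162845-77163267 (3.13 to 6.26 CPM in Mid and 11.1 to 14.03 CPM in Post). All 6 passed in the second run in the same direction. By class of gene, 1624 of 8734 promoters of protein-coding genes were higher (18.6%) and 1691 lower (19.4%), while of 593 promoters of processed pseudogenes, to which tags of their parent genes can be assigned, 110 were higher (18.5%) and 28 lower (4.72%).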

How the data were processed

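Soleus RNA of single mice was measured by nAnT-iCAGE. Per the methods of the study, reads were trimmed by the authors and aligned with BWA and HISAT2 to the mm10 assembly (versions not given in the sources used here) before their 5′ ends were clustered into promoters. Tag counts per promoter and library were deposited by the authors without normalization, and so were TPM values, which the authors scaled by library total and which were not used for tests. No column lacked a sample (0). Counts were analyzed with edgeR 4.0.16 in R 4.3.3, with the quasi-likelihood test after TMM over all 28 libraries of the first run (group as the only term), and p was adjusted by Benjamini-Hochberg over all 10776 promoters (FDR below 0.05). CPM are counts scaled by TMM-corrected library sizes, and the libraries held 23726836 to 31834199 tags. The second run and the interaction with the run (20 libraries of both) were fitted alike. Ratios of 2 promoters of a gene were tested with limma 3.58.1, with a prior count of 0.5. Promoters were given the gene of an annotated 5′ end within 500 bp (GENCODE, GRCm38), which left 1204 of 10819 without one, and the strand of the tags was used. No pair of replicates was a repeated library. In data simulated for Post against Mid with 10776 promoters, 94.5% of 200 promoters changed by 1 on the log2 scale were recovered.

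The members and gene lists were chosen with earlier results of these data known. Named are, in each direction, the 10 annotated promoters with the largest change among those called, with a mean of at least 1 CPM and no overlap, and in each list up to 4 called members with the smallest p, all members of a marker list whose sum differed, and the genes said in the text to be chosen after their values were seen. Alternatives were the likelihood ratio test, DESeq2 1.42.0, other scaling and filters, other sets of libraries, a replicate block and leaving out each library. A few members of the lists and pairs are counted but not reported by name here.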

Additional observations from a re-analysis of the deposited data

Results flagged for a closer look

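Each promoter named in the report was examined for a library far from the others of its group, by Dixon's test in the 8 Mid and the 4 Post libraries. Of 314 groups, 35 had such a library, where chance gives about 1 in 20, and 23 of the 35 were Mid 6.

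Most of the Mid 6 values lay between the other Mid libraries and the Post libraries. Mid 6 was below the other 7 Mid libraries at *Pdk4* (1717 CPM against 4640.2 CPM in the next library), *Trim63* (321 CPM), *Gabarapl1* (126 CPM), *Cdkn1a* (103 CPM) and *Plin4* (223 CPM). It was likewise low at *Acot2* (62.7 CPM), *Ulk1* (41.8 CPM), *Fbxo30* (21.8 CPM), *Pde4d* (18.2 CPM), *Rrs1* (16.8 CPM), *Plin5* (14.3 CPM), *Asb15* (13.9 CPM), *Pdp2* (12.4 CPM), *Chac1* (7.57 CPM), the downstream promoter of *Casz1* (6.497 CPM), the downstream promoter of *Lrch1* (5.55 CPM) and *Myc* (4.64 CPM). It was above the other Mid libraries at *Mid1ip1* (68.9 CPM against at most 41.4 CPM), *Serpinh1* (29.4 CPM), *Scx* (26.5 CPM), the upstream (21.1 CPM) and the downstream (5.31 CPM) promoter of *Clcn3*, and *Tnc* (5.63 CPM).

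The other 12 lay in 6 further libraries. In Mid, *Tkt* was at 64.5 CPM in Mid 1, *Ppp1r3a* at 77 CPM and *Sar1a* (upstream promoter) at 84.6 CPM in Mid 2, and in Mid 3 *Rpl5* was at 37.4 CPM, *Mrpl22* at 5.33 CPM and the upstream promoter of *Lrch1* at 19.5 CPM. In Post, *Gpihbp1* was at 23.8 CPM and *Esam* at 41.1 CPM in Post 1. *Arntl* was at 27.8 CPM and *Ndufv3* at 337 CPM in Post 3, and *Tnnc2* was at 5414 CPM and *Scx* at 25.6 CPM in Post 4.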

How the results depend on the processing

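The direction of no named promoter turned under any alternative, and of 3140 values for 157 promoters 3049 kept their side of the threshold or moved within the spread. The counts of 1881 promoters higher and 1890 lower stayed within 1.5 times under the likelihood ratio test (1821 and 1898), DESeq2 (1950 and 2045), a filter on low counts (1885 and 1901), a fit of the 12 libraries alone (1595 and 1506) and a fit of both runs (2214 and 1930). They fell to 808 and 822 without TMM. Upper-quartile scaling gave 2535 and 1471. The cause of these differences was not tested. Leaving out 1 library at a time gave 1415 to 2085 promoters higher and 1462 to 2079 lower, and 1173 and 1267 promoters were called in all 12 of these fits. In the second run the ranges were 538 to 854 and 652 to 995, the lowest without Post 7, where 538 were higher, and the second-run counts of 836 and 936 became 148 and 337 with the lane as a term, chosen after seeing the data.

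With the replicate number as a block, 1808 promoters were higher and 1901 lower. The deviations of same-numbered libraries correlated at -0.0489, 0.112, -0.218 and 0.383, and 1 of 4 Post libraries correlated best with its own number. These 4 values cannot tell whether libraries of the same number were handled together. No paired analysis was possible in either run, because the Mid and the Post libraries came from different mice. The depth limits promoters such as *Angptl8*, with 0 to 6 tags in a Mid library, and the small changes of ribosomal proteins depend on the scaling, as given in the report.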
